A study of Neurospora crassa OR74A with 2 samples.

Results

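The MAK-2 pathway of Neurospora crassa, a filamentous ascomycete, was followed through the transcripts of its 3 kinase genes and of its scaffold gene ham-5, in germinated conidia with and without the transcription factor PP-1. The members were chosen by their known place in the pathway and picked out by locus identifier, a choice made with earlier results of these data known, and all 5 identifiers were found among the 8564 genes listed in each library. They are nrc-1 (NCU06182), mek-2 (NCU04612), mak-2 (NCU02393) and a pair of older gene models, NCU11226 and NCU11227, which the RefSeq gene table of assembly NC12 joins into the single locus NCU01789, ham-5. The members therefore stand for 4 genes. One library came from the Δpp-1 deletion strain and 1 from the wild type, strain FGSC 2489. Both cultures were seeded with 1000000 conidia (asexual spores) per ml and grown for 5 h at 30 °C. How many isolates of the deletion strain were used, and how it was made, is not given in the sources used here. Levels are RPKM, that is, reads for each kilobase of gene and each 1000000 reads of the library, so levels of different genes can be set side by side.

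In a MAP kinase cascade, 3 protein kinases phosphorylate one another in turn, and the last one acts on targets that include transcription factors. NRC-1 is the MAP kinase kinase kinase of this pathway, MEK-2 the MAP kinase kinase and MAK-2 the MAP kinase, related to Ste11, Ste7 and Fus3/Kss1 of the budding yeast pheromone pathway. HAM-5 is the protein that holds the kinases together, and PP-1 is a Ste12-type transcription factor downstream of MAK-2. Germinated conidia (germlings) of Neurospora grow towards each other and fuse, and strains lacking one of these kinases, HAM-5 or PP-1 do not fuse. No protein or promoter sequence is shown, since none was used here.

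The library labelled Δpp-1 had 1.69 RPKM of pp-1 (NCU00340), against 83.8 RPKM in the wild type, the direction its label calls for. From the spacing of low values, the totals behind RPKM came to 9363920 reads for Δpp-1 and 7870070 reads for the wild type. Whether these units are reads or mates of read pairs is not known, and totals 0.5 times as large were the other reading of the same spacing. With 1 library per strain no difference has a replicate check and no p-value is given. The exact (Clopper-Pearson) 95% intervals below cover counting error only, since amplified copies carry no molecular identifiers and are not independent. RNA came from whole cultures, so fewer cells of a kind and less RNA per cell cannot be told apart.

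In the values as deposited, the kinase genes differed by at most 1.30 times between the strains. Both ham-5 models were lower in Δpp-1, by 3.40 times for NCU11226 and 2.995 times for NCU11227 as ratios of RPKM. Among the kinases, nrc-1, the first in the chain, stood at 16.5 RPKM in Δpp-1 and 16.3 RPKM in the wild type. The second, mek-2, stood at 40.0 RPKM in Δpp-1 and 51.9 RPKM in the wild type. The MAP kinase gene mak-2 was the highest member in each library, at 135 RPKM in Δpp-1 and 146 RPKM in the wild type. Of the scaffold models, NCU11226 stood at 11.4 RPKM in Δpp-1 and 38.7 RPKM in the wild type. The other model, NCU11227, stood at 6.84 RPKM in Δpp-1 and 20.5 RPKM in the wild type. Both scaffold models were thus lower in the same library by more than any kinase gene, of which mek-2 and mak-2 were also lower there in the values as deposited.

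**Figure D1:**
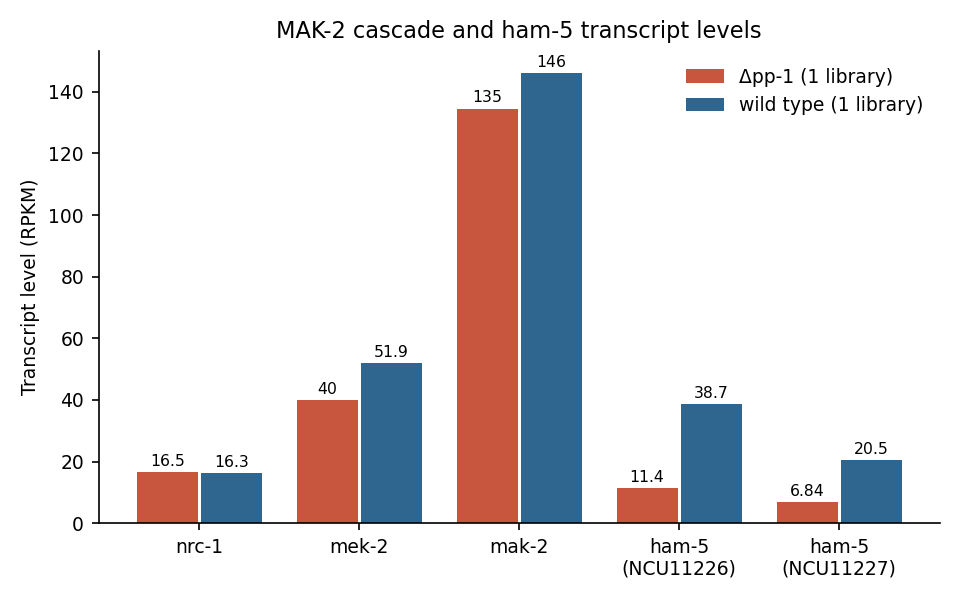
Bars show the RPKM of each member in the single Δpp-1 library (left bar of each pair) and the single wild-type library (right bar), with the value above each bar and no error bars, since there are no replicates. The kinase genes differ little between the bars of a pair, while the ham-5 models stand at 11.4 and 6.84 RPKM in Δpp-1 against 38.7 and 20.5 RPKM in the wild type.

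A pseudocount of 1 RPKM was added to each value, and log2((Δpp-1 + 1)/(wild type + 1)) gave the log2 difference, which understates the change of low genes. NCU11226 had a log2 difference of -1.68, and its plain RPKM ratio, Δpp-1 over wild type, was 0.294 with an interval of 0.260 to 0.331. NCU11227 had a log2 difference of -1.45 and a ratio of 0.334 with a wider interval of 0.209 to 0.520, since the fewest reads that could give its values were 29 for Δpp-1 and 73 for the wild type. By the fixed size of 2-fold, applied to genes that reached 10 RPKM in one library or the other, both ham-5 models counted as lower. NCU11227 did so by its point value, since its interval also includes differences under 2-fold. All 5 members reached that level, but NCU11227 did so only in the wild type, the library where it was higher. So 2 of 5 members were at least 2-fold lower, where 6.98% of the 4831 genes compared were, and 0 of 5 were at least 2-fold higher, where 2.73% were. The 2 models are parts of 1 gene and not independent.

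For the kinase genes the ratios were near 1 and the side on which they lay changed with the scaling between libraries for mek-2 and mak-2. The median of the 4831 genes was at -0.28 in the values as deposited. The log2 difference of nrc-1 was 0.01, which is 0.29 above that median, and its ratio was 1.01 with an interval of 0.874 to 1.17. For mak-2 the log2 difference was -0.12, or 0.16 above the median gene, with a ratio of 0.921 and an interval of 0.852 to 0.997. For mek-2 it was -0.37, or -0.09 relative to the median gene, with a ratio of 0.770 and an interval of 0.706 to 0.840. If the units were mates of pairs, with 0.5 times the reads, the interval of mak-2 would be 0.825 to 1.03 and include 1. That of nrc-1 would be 0.825 to 1.24, that of mek-2 0.681 to 0.871 and that of NCU11226 0.248 to 0.349. The interval of NCU11227 would be 0.163 to 0.621, which includes a 2-fold difference, as the interval of 0.209 to 0.520 above already does. The kinase genes thus lay on either side of the median gene, and none reached 2-fold under any scaling tried. Relative to the same median, the ham-5 models were at -1.41 for NCU11226 and -1.18 for NCU11227, still past 2-fold. Among the 4831 genes, 2.92% had a smaller log2 difference than NCU11226 and 3.68% a smaller one than NCU11227, against 40.9% for mek-2, 64.5% for mak-2 and 74.8% for nrc-1. These shares describe the place of each member and are no test.

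**Figure D2:**
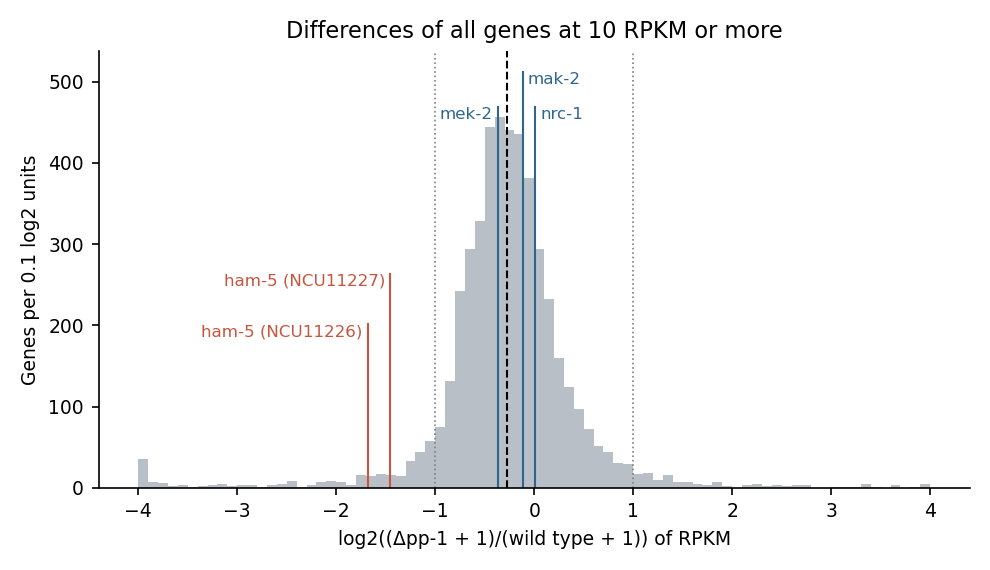
The histogram shows the log2 difference, Δpp-1 over wild type, of the 4831 genes that reached 10 RPKM in either library, with values beyond the ends of the axis placed in the end bins. Vertical lines mark the members, the dashed line the median gene at -0.28 and the dotted lines 2-fold, and the 2 ham-5 models lie in the lower tail while the kinase genes lie in the bulk.

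Ratios of members within a library do not depend on that scaling. NCU11226 had 0.0845 times the level of mak-2 in Δpp-1 and 0.265 times in the wild type. The ratio of these ratios was 0.319, with an exact conditional counting interval of 0.276 to 0.368. NCU11227 had 0.0508 times the level of mak-2 in Δpp-1 and 0.140 times in the wild type, a ratio of ratios of 0.362 with an interval of 0.226 to 0.569. Scaffold transcript was therefore lower relative to the terminal kinase in Δpp-1 by either model. Against mek-2 the ratios of ratios were 0.382 for NCU11226 and 0.433 for NCU11227, and against nrc-1 they were 0.291 for NCU11226 and 0.331 for NCU11227.

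The order of levels differed between the libraries in the place of nrc-1. In Δpp-1 the order from high to low was mak-2, mek-2, nrc-1, NCU11226 and NCU11227. In the wild type it was mak-2, mek-2, NCU11226, NCU11227 and nrc-1. NCU11226 had 0.689 times the level of nrc-1 in Δpp-1, against 2.37 times in the wild type, and NCU11227 had 0.414 times in Δpp-1, against 1.25 times in the wild type. The last pair in the wild type, NCU11227 over nrc-1, had an interval of 0.960 to 1.62 with the fewest reads that match NCU11227 (73), and of 1.03 to 1.52 with the next matching number (146), so whether counting error separates them depends on which of these holds. The other neighbours in the order were separated by counting error at the fewest matching reads, and the interval nearest to 1 was that of NCU11226 over NCU11227 in Δpp-1, at 1.66 (1.14 to 2.52). Counting error is not the only limit on levels of different genes. In 13 other genes with 2 older models, described below, the models of 1 gene differed by 1.01 to 4.94 times in the wild type. Every step between neighbours lay inside that range, so the order of genes close in level is not settled. The highest member stood 19.7 times above the lowest in Δpp-1 and 8.94 times in the wild type. Set against all 8564 genes, mak-2 was above 94.5% in Δpp-1 against 94.2% in the wild type, mek-2 above 81.9% in Δpp-1 against 83.2% in the wild type, and nrc-1 above 63.3% in Δpp-1 against 57.7% in the wild type. NCU11226 was above 53.5% of genes in Δpp-1 against 78.6% in the wild type, and NCU11227 above 42.5% in Δpp-1 against 64.0% in the wild type.

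Because ham-5 is covered by a pair of models, its difference was measured over separate stretches of 1 transcript locus. NCU11226 was 1.66 times as high as NCU11227 in Δpp-1 and 1.89 times in the wild type. The ratio of these ratios was 0.880 with an interval of 0.555 to 1.43, so the models' differences were not told apart by counting error. The gene table joins other older models in the same way, and 13 other pairs had both models at 10 RPKM or more in the higher library of each model. These give a gauge of how far the values of 1 gene can lie apart, although a joined model may also be wrong. The gap between the log2 differences of the models was 0.23 for ham-5, and from 0.11 to 0.76 with a median of 0.27 for the others. In 0 of the 13 other pairs were both models at least 2-fold lower. Of all genes compared 6.98% were, so 0 of 13 is not unusual. The mean log2 difference of a pair ran from -0.68 to 0.11 in the other pairs, against -1.57 for ham-5. The log2 differences of the kinase genes lay 0.38 apart from lowest to highest, inside the range of these gaps. Those of the ham-5 models lay from 1.09 (NCU11227 below mek-2) to 1.69 (NCU11226 below nrc-1) under the kinase genes, outside it.

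**Figure D3:**
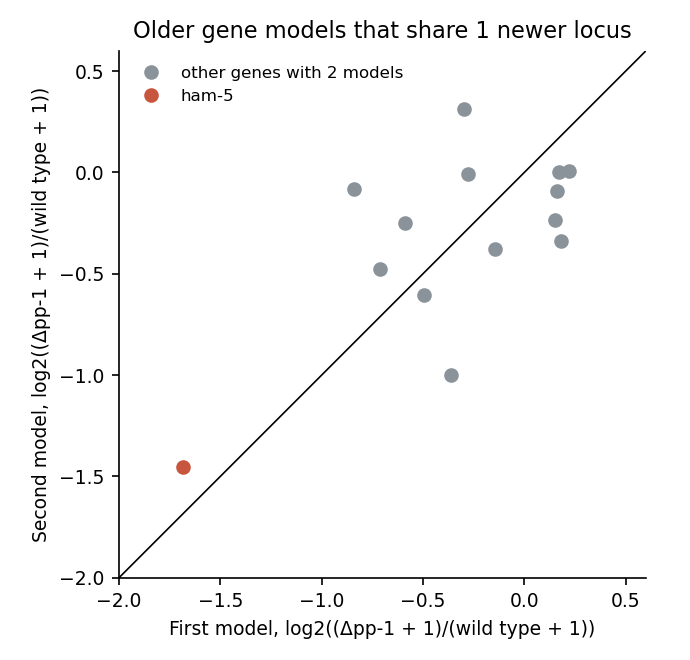
Each point is a gene with 2 older models, both at 10 RPKM or more in the higher library, placed by the log2 difference, Δpp-1 over wild type, of its first model (horizontal) and second model (vertical), with the line of equality drawn. The ham-5 point, at -1.68 and -1.45, is apart from the 13 other genes, at the low end of both axes.

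The 3 kinase genes were next set beside those of the other MAP kinase pathways of Neurospora, tier by tier. The MAK-1 pathway serves cell wall integrity, with mik-1, mek-1 and mak-1 as its kinases, and the OS-2 pathway serves the response to osmotic stress, with os-4, os-5 and os-2. At the top tier, nrc-1 (16.5 RPKM in Δpp-1, 16.3 RPKM in the wild type) was close to mik-1 (NCU02234), which stood at 17.7 RPKM in Δpp-1 and 16.1 RPKM in the wild type. The third gene of that tier, os-4 (NCU03071), stood at 31.5 RPKM in Δpp-1 and 19.3 RPKM in the wild type. At the bottom tier, mak-2 was beside mak-1 (NCU11376), at 106 RPKM in Δpp-1 and 170 RPKM in the wild type, and os-2 (NCU07024), at 124 RPKM in each library. In the wild type the cascades were furthest apart at the middle tier. There mek-2 had 40.0 RPKM in Δpp-1 and 51.9 RPKM in the wild type, while mek-1 (NCU06419) had 35.8 RPKM in Δpp-1 and 143 RPKM in the wild type. The OS-2 counterpart os-5 (NCU00587) had 24.6 RPKM in Δpp-1 and 29.1 RPKM in the wild type.

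In the wild type, levels increased from the first kinase to the last in all 3 cascades. In Δpp-1 this order held for the MAK-2 and MAK-1 kinases but not for OS-2, where os-5 had 0.782 times the level of os-4, against 1.51 times in the wild type. The MAP kinase gene stood above the first kinase gene by 8.16 times in Δpp-1 against 8.94 times in the wild type for MAK-2, by 5.97 times in Δpp-1 against 10.5 times in the wild type for MAK-1, and by 3.94 times in Δpp-1 against 6.44 times in the wild type for OS-2. For MAK-2 the ratio of these ratios was 0.913, with a counting interval of 0.774 to 1.08 that includes 1. For MAK-1 it was 0.567 (interval 0.471 to 0.683) and for OS-2 0.612 (0.523 to 0.715). The balance of first to last kinase transcript in the MAK-2 cascade was thus not separated between the libraries by counting error, while it was in the other cascades. Whether the cascades differ in this was not tested. Between tiers of the MAK-2 cascade, mek-2 over nrc-1 was 2.43 in Δpp-1 against 3.18 in the wild type, a ratio of ratios of 0.763 with an interval of 0.645 to 0.903. The next step went the other way, with mak-2 over mek-2 at 3.36 in Δpp-1 against 2.81 in the wild type, a ratio of ratios of 1.20 with an interval of 1.06 to 1.34.

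**Figure D4:**
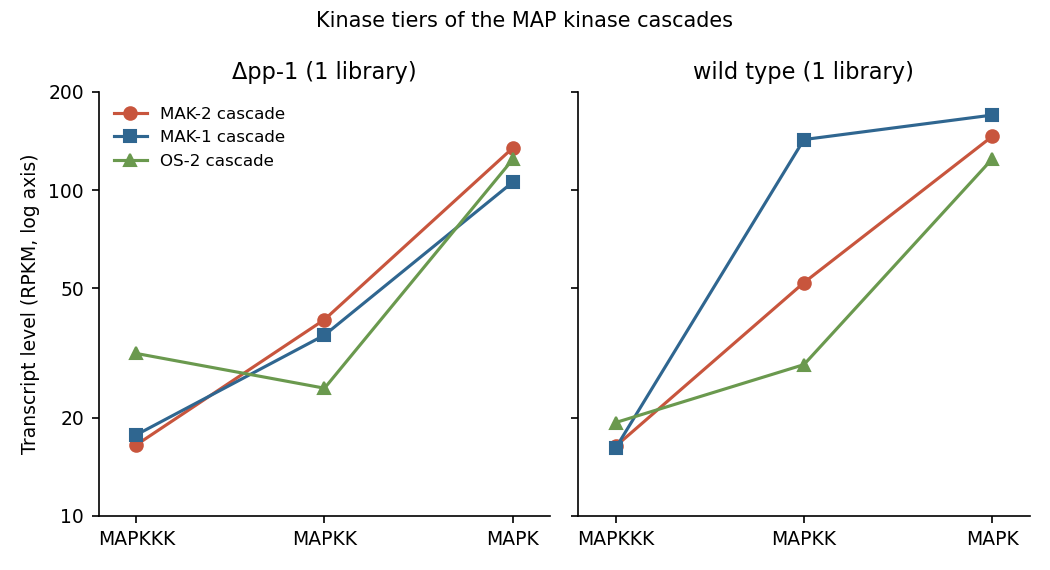
Lines join the RPKM (log axis) of the first, middle and last kinase gene of the MAK-2, MAK-1 and OS-2 cascades in the single Δpp-1 library (left) and the single wild-type library (right). The points of the MAK-2 line differ by at most 1.30 times between the panels, while mek-1 of the MAK-1 cascade stands at 35.8 RPKM in Δpp-1 against 143 RPKM in the wild type.

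Leaving out the deleted gene pp-1 itself, 19 other genes were listed for the pathway or for cell fusion. Of these, 10 were at least 2-fold lower in Δpp-1, beside 6.98% of all genes compared, and none was 2-fold higher, beside 2.73%. Measured from the median gene, 7 of the 19 were 2-fold lower. The share of all genes by that measure was not counted. With median scaling, a similar shift, 221 of all genes were 2-fold lower, against 337 in the values as deposited. The median log2 difference of the 19 was -1.05, against -0.28 over all genes compared. This list was chosen with earlier results of these data known, and 9 of its 10 lower genes were among 11 listed for cell fusion. Of its 7 upstream genes, as of the kinase genes, none was past 2-fold in either direction, and the median of the 7 was -0.19. With 6.98% of all genes compared lower and 2.73% higher, none of 7 is not unusual. Among these 7 were the small GTPase genes rac-1 (NCU02160), at 113 RPKM in Δpp-1 and 126 RPKM in the wild type, and cdc42 (NCU06454), at 43.7 RPKM in Δpp-1 and 50.2 RPKM in the wild type. The others, NCU00455, NCU03894, NCU03616, NCU08008 and NCU06593, had log2 differences of -0.30, -0.43, 0.01, 0.13 and -0.26.

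The ham-5 models had differences of the size seen among 11 genes listed for cell fusion, which had a median of -1.48. Of these 11 genes, 9 were at least 2-fold lower, beside 6.98% of all genes compared. Measured from the median gene, 7 of them still were, and the share of all genes by that measure was not counted. The gene so (NCU02794), whose protein appears at growing germling tips in alternation with MAK-2, stood at 16.5 RPKM in Δpp-1 and 52.4 RPKM in the wild type. For ham-8 (NCU02811), which is needed for fusion, the levels were 55.6 RPKM in Δpp-1 and 172 RPKM in the wild type, and for ham-6 (NCU02767), also needed for it, 20.6 RPKM in Δpp-1 and 74.2 RPKM in the wild type. The gene nox-1 (NCU02110), which encodes an NADPH oxidase, stood at 31.4 RPKM in Δpp-1 and 89.6 RPKM in the wild type. The log2 differences of these 4 genes were -1.61, -1.61, -1.80 and -1.48, beside -1.68 and -1.45 for the ham-5 models. NCU07192 and NCU04732 had log2 differences of -1.53 and -1.43. The membrane fusion gene Prm1 (NCU09337) was far lower, at 0.512 RPKM in Δpp-1 and 43.4 RPKM in the wild type. The log2 differences of ham-7 and ham-9 were -1.09 and -1.15, and relative to the median gene these 2 did not reach 2-fold. Those of nor-1 and NCU07191 were -0.76 and -0.47. The transcription factor gene adv-1 (NCU07392), which also acts in germling fusion, stood at 45.7 RPKM in Δpp-1 and 95.6 RPKM in the wild type, a log2 difference of -1.05, or -0.77 relative to the median gene.

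**Figure D5:**
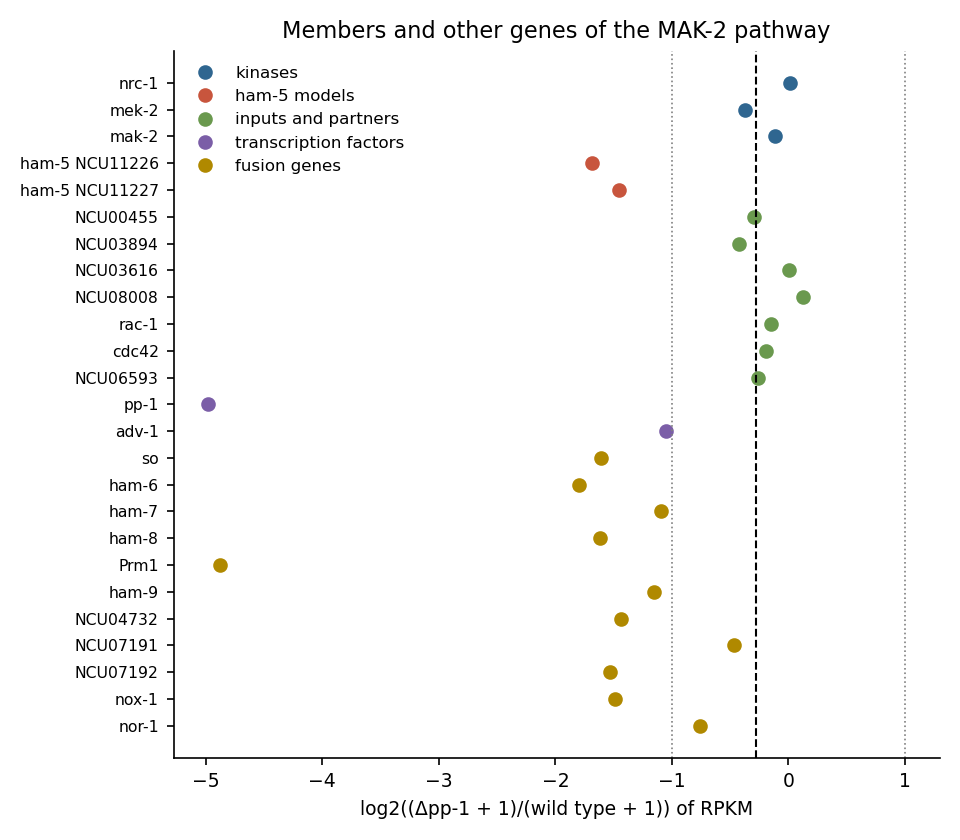
Points show the log2 difference, Δpp-1 over wild type, of the 5 members and 20 other genes, coloured by role. The 20 were listed for the pathway or for cell fusion, the deleted pp-1 among them. The dashed line is at the median gene (-0.28) and the dotted lines are at 2-fold. The kinase and upstream genes lie between the dotted lines, while the 2 ham-5 models lie to the left of the lower line with 9 of the 11 fusion genes.

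Markers of conidia and aerial hyphae also differed between the libraries. Of 8 such genes, 5 reached 10 RPKM, and 4 of these 5, con-10, al-1, con-6 and eas, were past 2-fold with Δpp-1 the higher, where 2.73% of all genes compared were. However, con-6 and eas, at 8.78 and 9.55 RPKM in the wild type, reached 10 RPKM only in Δpp-1, where they were higher. The count of 4 of 5 therefore depends in part on that filter. The other 4 of the 8 had log2 differences of -0.11 (ccg-1), -0.23 (con-8), -0.76 (acon-3) and -0.07 (fl). Of these, acon-3 stood at 0.668 RPKM in Δpp-1 and 1.83 RPKM in the wild type, a plain ratio of 0.364. The summed level of the 8 genes was 337 RPKM in Δpp-1 and 93.3 RPKM in the wild type, of which al-1 made up 187 RPKM in Δpp-1 and 41.1 RPKM in the wild type, and none was at 0. Among them, con-10 (NCU07325), expressed in conidia, had 71.3 RPKM in Δpp-1 and 11.3 RPKM in the wild type, while the conidiation regulator fl (NCU08726) had 2.65 RPKM in Δpp-1 and 2.83 RPKM in the wild type. Of 2 mating markers, ccg-4 (NCU02500), which encodes a pheromone precursor, had 642 RPKM in Δpp-1 and 48.6 RPKM in the wild type, and the pheromone receptor gene pre-1 (NCU00138) had 2.15 RPKM in Δpp-1 and 1.56 RPKM in the wild type. Of 4 genes active in vegetative growth, act, gpd-1 and pma-1 had log2 differences of -0.05, -0.19 and -0.45, of which act and gpd-1 lay above the median gene, and hex-1 one of -1.67. The part of these differences in the lower ham-5 levels was not tested.

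Nothing in the library preparation described marks the strand, so where genes overlap their reads cannot be told apart. In the gene table the span of mek-2 overlaps that of NCU04613, which stood at 16.3 RPKM in Δpp-1 and 22.2 RPKM in the wild type, and the span of mak-2 overlaps that of NCU02394, at 15.3 RPKM in Δpp-1 and 14.6 RPKM in the wild type. The spans of nrc-1 and ham-5 overlap neither neighbour. The listed neighbour of ham-5, NCU01788, stood at 5.11 RPKM in Δpp-1 and 2.996 RPKM in the wild type, the opposite side from ham-5. NCU06183 beside nrc-1 and NCU04611 beside mek-2 had log2 differences of -0.10 and -0.20.

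The genes with levels most like each member were sought by the distance in log2(RPKM + 1) over the 2 libraries, which is a weak measure of likeness with so few. For NCU11226 they were NCU05917 (10.8 RPKM in Δpp-1, 37.6 RPKM in the wild type), NCU11247 (12.1 RPKM in Δpp-1, 38.4 RPKM in the wild type) and NCU07063 (11.2 RPKM in Δpp-1, 35.2 RPKM in the wild type), at distances of 0.082 to 0.13. For NCU11227 they were NCU04796, NCU02732 and NCU10691, at 0.072 to 0.12. For mak-2 they were NCU11258, NCU03882 and NCU03935 (0.048 to 0.078), and for mek-2 col-26 (NCU07788), NCU00573 and NCU08323 (0.041 to 0.051). For nrc-1 they were NCU02402, NCU09509 and NCU02544 (0.020 to 0.030). Apart from col-26, a regulator of carbon use, none of these has a symbol in the gene table.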

How the data were processed

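The authors extracted RNA with Trizol, selected mRNA on oligo(dT) beads, fragmented it, copied it with random primers and ligated adapters, per the labels' protocols. The submitters' processing notes name TopHat and Cufflinks but give no version and no role. The build and annotation are not given in the sources used here. The deposited values are RPKM, per the file headers. Each table had 8802 lines, and the 238 repeated identifiers, equal in value, were counted once. No columns of other samples were present.

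Symbols and spans came from the RefSeq gene table of assembly NC12. None of its coordinates are printed. It gives no symbol like the listed name for NCU00455, NCU03894, NCU03616, NCU08008, NCU06593, NCU04732, NCU07191 and NCU07192, which are given by identifier.

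The members and gene lists were chosen with earlier results of these data known. The genes named were all members, the kinases of the other cascades, the listed pathway, fusion and marker genes, the neighbours of each member, and the 3 genes nearest to each.

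Depth was read from values under 1.5 RPKM in both libraries. Of 800 such genes, 725 had a ratio of whole numbers up to 20 times 1 depth ratio, 1.19, within rounding (90.6%, and 0% with that ratio moved by 0.3% either way). Of these 725, 659 gave a whole gene length (within 0.02 bases) at 1 common total. Of 330 lengths above the annotated span 99.7% were even, and of the other lengths 64.3%, so the total was taken as 2 times as large. The smallest whole reads and length matching a member in both libraries set its interval. For Δpp-1 and the wild type these were 424 and 353 reads for nrc-1, 1009 and 1101 for mek-2, 1342 and 1224 for mak-2, and 371 and 1061 for NCU11226. For mak-2 and NCU11227 larger numbers also matched. No test was possible with 1 library per strain. The steps that find the depth ratio, the common total and the matching reads, and the log2 difference, were tested on simulated data. There the true reads counted as found anywhere among the matches. Taking the total as 2 times as large and using the smallest match were not tested in this way. Python 3.11.15 and SciPy 1.17.1 were used.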

Additional observations from a re-analysis of the deposited data

How the results depend on the processing

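No paired analysis was possible because there was only 1 library of each strain, so none could be left out either. Leaving out the pseudocount and leaving out genes at 0 were alternatives chosen after seeing the data. Both ham-5 models stayed at least 2-fold lower under every pseudocount and scaling tried. For NCU11226 the log2 difference was -1.42 with a pseudocount of 5, -1.44 with median scaling, -1.45 with upper-quartile scaling and -1.31 with equal sums of RPKM, and NCU11227 ranged from -1.10 to -1.58 over all alternatives. Relative to mak-2, NCU11226 was at -1.30 with a pseudocount of 5, and NCU11227, at -0.99, was then just short of 2-fold, as it was at -0.96 relative to the mean of the 3 kinase genes. The kinase genes moved with the scaling: with median, upper-quartile and equal-sum scaling, nrc-1 was at 0.26, 0.25 and 0.39, mek-2 at -0.12, -0.12 and 0.022, and mak-2 at 0.14, 0.13 and 0.28. Against 132 genes higher and 337 lower in Δpp-1, these scalings gave 212 and 221, 205 and 224, and 281 and 194. The counts were 295 and 1125 at 1.5-fold, 252 and 521 with no filter, and 67 and 179 at 30 RPKM or more, settings that admit more or fewer genes by design. No value past 2-fold changed sign. The reads behind NCU11227 are known only as a multiple of 29 for Δpp-1 and 73 for the wild type, and its ratio interval, 0.209 to 0.520 with these, would be 0.297 to 0.375 with the largest multiple tried (406 and 1022 reads). The interval with 0.5 times the reads and the pathway list without pp-1 were also added after seeing the data.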
